A study of Mus musculus with 8 samples.

Results

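The Hox genes of the neonatal mouse brain were described across 8 RNA-seq libraries. The members were all genes of the count table named Hoxa, Hoxb, Hoxc or Hoxd with a paralog number, which gave 39 of the 32285 genes, 11 in the Hoxa cluster, 10 in Hoxb, 9 in Hoxc and 9 in Hoxd. The libraries were made from whole brain tissue of C57BL/6 neonates, 4 from ICSI-F2 animals and 4 from controls. In intracytoplasmic sperm injection (ICSI) a sperm is injected into the egg. All ICSI-F2 pups were male and came from natural matings of fathers that had been born after ICSI, and the controls had naturally mated wild-type parents. The sex of the controls, the age in days and the extent of tissue taken are not given in the labels. The sample codes also carry a letter, F for ICSI-F2 1 and 2, G for ICSI-F2 3 and 4, A for controls 1 and 2 and D for controls 3 and 4. What the letter stands for is not given, and each letter lies within a single group. The labels do not say whether libraries came from separate litters or were prepared separately, so p-values reflect the spread of these libraries alone.

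Hox genes encode homeodomain transcription factors that give cells their position along the head-to-tail axis of the embryo. The 4 mammalian clusters arose by duplication, and genes at the same place in different clusters are paralogs that share a number. Genes with low numbers are expressed from the hindbrain backwards, and genes with higher numbers start progressively further back along the spinal cord, so that their order in the cluster mirrors their order in the body. The forebrain and midbrain develop without Hox expression, and neurons of the hindbrain and spinal cord keep a Hox code after birth. On the mm10 build the Hoxa genes span chr6:52155590-52260880 on the minus strand. The Hoxb genes span chr11:96194316-96368256, the Hoxc genes chr15:102921103-103036852 and the Hoxd genes chr2:74668310-74765142, all on the plus strand.

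The libraries held 12968175 to 16551511 counts over all genes, and 24101 genes had at least 1 count. A gene with 0 counts in a library could have had up to 3 counts there, which was 0.183 to 0.230 CPM (CPM, counts scaled to a common library size with TMM factors). The neuronal and glial genes of the brain list, such as Snap25 and Map2, summed to 6460 to 6746 CPM, so all 8 libraries held brain RNA at a similar level. Intervals on counts and ratios of counts are exact 95% intervals and cover counting error only.

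Hox RNA was found almost entirely in the pair of control libraries with code A. The 39 genes summed to 60, 11, 54 and 2 counts in ICSI-F2 1 to 4, against 1633, 693, 2 and 15 counts in controls 1 to 4. As summed CPM this was 3.66, 0.843, 4.13 and 0.152 in the ICSI-F2 libraries and 99.8, 45.9, 0.126 and 1.08 in the controls. The code A controls lay far above every other library, while the code D controls lay inside or below the range of the ICSI-F2 libraries. Code A held 94.2% of the 2470 Hox counts of the whole series. Of the 39 genes, 11, 6, 13 and 1 had at least 1 count in ICSI-F2 1 to 4, against 21, 19, 2 and 8 in controls 1 to 4. At 5 counts or more the numbers were 6, 0, 3 and 0 in the ICSI-F2 libraries and 18, 13, 0 and 0 in the controls. Both code A libraries lay above the other 6 libraries for 18 of the 39 Hox genes, and the same was true of 5.68% of all genes with at least 1 count. In bulk tissue, fewer cells of a type and less RNA per cell cannot be told apart.

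**Figure D1:**
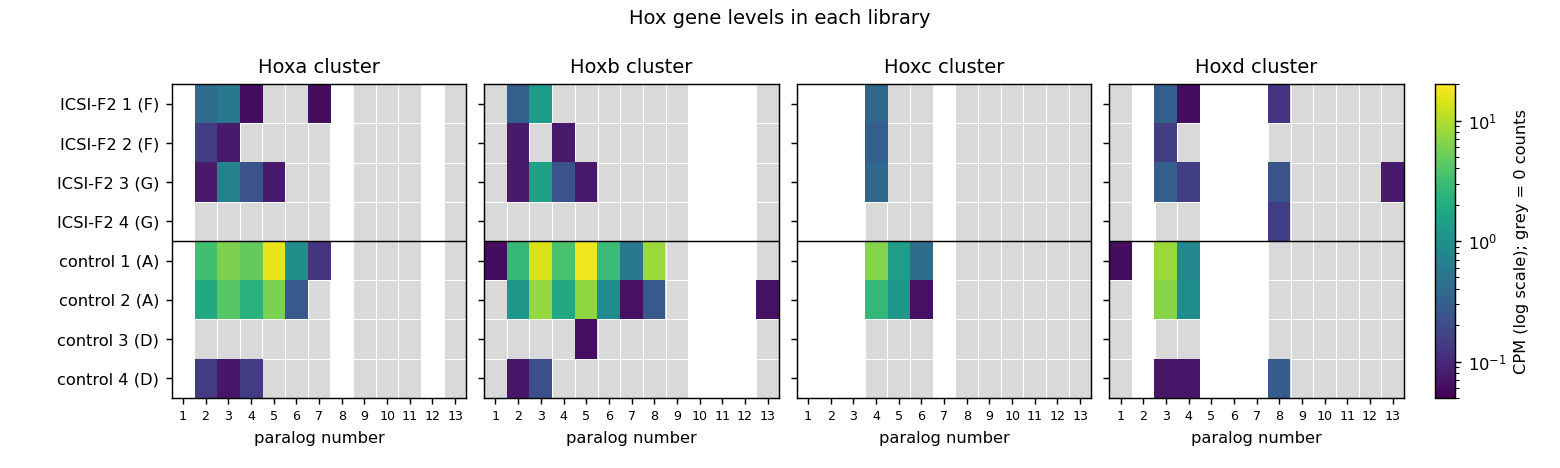
Level of each Hox gene (colour, CPM on a log scale) by cluster (panels), paralog number (columns) and library (rows, ICSI-F2 above control, code letter in brackets). Grey cells are genes at 0 counts and blank cells are paralogs that the cluster does not have or that are not shown. The 2 code A rows are filled for paralogs 2 to 6 in every gene that exists, and paralogs 9 to 12 are grey in all 8 rows.

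Between the groups, no Hox gene passed the test. Summed Hox CPM averaged 2.2 ± 1.99 in ICSI-F2 and 36.7 ± 47.2 in control (SD, n = 4 each), so the control spread exceeded the control mean. Only Hoxb3, a gene of the caudal hindbrain and spinal cord, had counts in enough libraries for the edgeR filter of the 4 against 4 fit. Hoxb3 had 1.34, 0, 1.53 and 0 CPM in ICSI-F2 1 to 4, against 14.7, 7.68, 0 and 0.216 CPM in controls 1 to 4. The groups overlapped, and ICSI-F2 1 and 3 lay above both code D controls. The log2 fold change was -2.93 ± 1.63 (SE), with an adjusted p of 0.746 by edgeR's quasi-likelihood test. The fit called 0 Hox genes, also at an unadjusted p under 0.05, and DESeq2 and limma-voom called 0 as well. Over all 15565 genes tested, 0.00642% were called higher and 0% lower in ICSI-F2. Without the code A libraries the direction for Hoxb3 turned, with 0.718 ± 0.832 CPM in ICSI-F2 (SD, n = 4) and 0.108 ± 0.153 CPM in code D (SD, n = 2), and an adjusted p of 0.942 by edgeR, where its other alternatives gave 0.523 to 1.0. With no filter on low counts, 24 Hox genes were fitted, 0.207% of all genes were called in either direction, and 1 Hox gene, Hoxa6, was called lower in ICSI-F2 with an adjusted p of 0.0345 by edgeR, on 0 counts in all 4 ICSI-F2 libraries, against 16, 4, 0 and 0 counts in controls 1 to 4.

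The sequences before 5 Hox genes are shown for the contrast in where they were detected. Hoxa5 had the highest level per length, and Hoxb4 lies in the middle of its cluster's detected genes. Hoxb8 differed most between the code A libraries. Hoxd8 was at 0 in code A and had counts in some of the other libraries, and Hoxa9 was at 0 in all 8 libraries. Each is the 250 bases before the gene's start, 5′ to 3′ on the gene's own strand, from RefSeq on GRCm38.p6. The positions are chr6:52204588-52204837 (minus strand) for Hoxa5, chr11:96318017-96318266 (plus) for Hoxb4, chr11:96281655-96281904 (plus) for Hoxb8, chr2:74704365-74704614 (plus) for Hoxd8 and chr6:52227371-52227620 (minus) for Hoxa9. None of the 5 stretches overlaps an annotated exon. Capitals mark matches, on either strand, to 4 motifs of factors that act on Hox genes.
Hoxa5: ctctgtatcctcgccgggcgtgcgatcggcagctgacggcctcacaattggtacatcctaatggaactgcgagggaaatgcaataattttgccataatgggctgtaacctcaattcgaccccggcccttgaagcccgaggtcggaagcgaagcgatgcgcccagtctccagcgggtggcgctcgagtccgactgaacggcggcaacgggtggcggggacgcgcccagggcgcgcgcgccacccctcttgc
Hoxb4: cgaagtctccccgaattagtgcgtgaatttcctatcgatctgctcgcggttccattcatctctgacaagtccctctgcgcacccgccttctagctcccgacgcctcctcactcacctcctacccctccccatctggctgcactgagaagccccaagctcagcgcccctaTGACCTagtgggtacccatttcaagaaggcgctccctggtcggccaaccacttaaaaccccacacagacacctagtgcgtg
Hoxb8: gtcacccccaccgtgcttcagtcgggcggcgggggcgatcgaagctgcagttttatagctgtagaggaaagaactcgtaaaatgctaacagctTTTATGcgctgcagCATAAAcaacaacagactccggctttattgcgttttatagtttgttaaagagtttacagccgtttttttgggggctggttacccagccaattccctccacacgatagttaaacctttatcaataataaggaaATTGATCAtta
Hoxd8: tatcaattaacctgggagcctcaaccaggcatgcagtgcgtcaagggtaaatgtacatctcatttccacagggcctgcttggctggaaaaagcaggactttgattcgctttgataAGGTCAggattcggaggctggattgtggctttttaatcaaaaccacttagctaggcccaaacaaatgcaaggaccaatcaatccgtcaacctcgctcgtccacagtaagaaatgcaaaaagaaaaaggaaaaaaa
Hoxa9: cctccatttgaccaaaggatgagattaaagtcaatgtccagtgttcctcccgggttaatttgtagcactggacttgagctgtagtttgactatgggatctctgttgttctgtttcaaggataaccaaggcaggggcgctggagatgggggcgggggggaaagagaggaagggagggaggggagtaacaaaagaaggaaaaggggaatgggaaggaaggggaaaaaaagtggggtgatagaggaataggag
The motifs were AGGTCA for retinoic acid receptors, TGATNNAT for Pbx-Hox pairs, TGACAG for Meis and TTTATG for Cdx. AGGTCA lies in 14% of the 32851 promoters of the table, TGATNNAT in 7.68%, TGACAG in 15.9% and TTTATG in 10.8%, each in windows of the same kind. Of 24 promoters that matched 22 of the 39 Hox genes, 6, 4, 2 and 5 held these motifs in the same order. Hoxb4 held TGACCT, the reverse complement of the retinoic acid motif, 81 to 76 bases before its start. Hoxb8 held a Pbx-Hox match, ATTGATCA, at 11 to 4 bases before its start, and Cdx matches at 157 to 152 and at 143 to 138 bases before it. Hoxd8 held AGGTCA at 135 to 130 bases before its start, and these letters were not in the windows of Hoxa5 and Hoxa9. The matches are a description of the letters and do not show binding.

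Paralogs 2 and 3, which pattern the hindbrain segments, were higher in both code A libraries than in the other 6. Hoxb1, which sets the identity of an early hindbrain segment, was nearly silent, with 1 count in all 8 libraries together. Hoxa2, whose expression reaches furthest forward of all Hox genes, had 0.426, 0.153, 0.0765 and 0 CPM in ICSI-F2 1 to 4, against 3.24, 1.92, 0 and 0.144 CPM in controls 1 to 4. Hoxb2, which acts in hindbrain segments beside Hoxa2, had 0.305, 0.0766, 0.0765 and 0 CPM in the ICSI-F2 libraries and 2.75, 1.19, 0 and 0.0722 CPM in the controls. For both genes each code A library lay above all others, and ICSI-F2 1 came next. Hoxa3, which is needed for the caudal hindbrain and for the thymus and parathyroid, had 0.548, 0.0766, 0.689 and 0 CPM in ICSI-F2 and 6.17, 4.17, 0 and 0.0722 CPM in control. Hoxd3, which with Hoxa3 shapes the first neck vertebrae, had 0.305, 0.153, 0.306 and 0 CPM in ICSI-F2 and 8.13, 6.75, 0 and 0.0722 CPM in control. Hoxa3, Hoxb3 and Hoxd3 shared one order, with code A on top, ICSI-F2 1 and 3 next, and ICSI-F2 4 and control 3 at 0.

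Paralogs 4 and 5, whose expression starts further back than that of paralogs 2 and 3, were higher in both code A libraries than in the other 6 for every gene of the groups. Hoxa4 had 0.0609, 0, 0.230 and 0 CPM in ICSI-F2 1 to 4, against 4.77, 2.32, 0 and 0.144 CPM in controls 1 to 4. Hoxb4, known as a regulator of blood stem cells, had 0, 0.0766, 0.230 and 0 CPM in ICSI-F2 and 3.61, 1.79, 0 and 0 CPM in control. Hoxc4, the foremost gene of the Hoxc cluster, had 0.366, 0.307, 0.383 and 0 CPM in ICSI-F2 and 6.60, 2.71, 0 and 0 CPM in control. Hoxc4 was thus found in 3 of the 4 ICSI-F2 libraries and in neither code D control. Hoxd4 stayed low everywhere, with 0.0609, 0, 0.153 and 0 CPM in ICSI-F2 and 0.794, 0.927, 0 and 0.0722 CPM in control. Hoxa5, which is required for phrenic motor neurons and breathing, had 0, 0, 0.0765 and 0 CPM in ICSI-F2 and 16.3, 5.96, 0 and 0 CPM in control. Hoxb5, a regulator of neural crest cells, had 0, 0, 0.0765 and 0 CPM in ICSI-F2 and 17.7, 7.41, 0.0629 and 0 CPM in control. Hoxa5 and Hoxb5 each had 1 count in ICSI-F2 3, and outside code A the pair summed to 3 counts. Hoxc5, which acts beside Hoxa5 in phrenic motor neurons, was at 0 in all 4 ICSI-F2 libraries, against 1.41, 1.19, 0 and 0 CPM in controls 1 to 4.

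Paralogs 6 to 8, genes of the neck and upper trunk levels of the cord, were found mostly in code A. Hoxa6, Hoxb6, Hoxb7 and Hoxc6 had 0 counts in all 4 ICSI-F2 libraries and in both code D controls. In controls 1 and 2 Hoxa6 had 16 and 4 counts, Hoxb6 49 and 14, Hoxb7 9 and 1, and Hoxc6 7 and 1. Hoxb8, which is used by sensory neurons of the spinal cord, had 0 counts in all 4 ICSI-F2 libraries, against 133, 4, 0 and 0 counts in controls 1 to 4. Hoxa7 had 1 count in ICSI-F2 1 and 2 counts in control 1. Hoxd8 went the other way, with 2, 0, 3 and 2 counts in ICSI-F2 1 to 4, against 0, 0, 0 and 4 counts in controls 1 to 4. It was the only Hox gene with 4 or more counts in the other 6 libraries together that was at 0 in both code A libraries, a feature chosen after its values were seen. Its 11 counts over 6 libraries are a level of 0.129 CPM, under the 3-count limit of a single code A library. Taken at 3 counts over the pair of code A libraries, the bound is at least 1.35-fold lower in code A, for a gene chosen in this way. Paralogs 9 to 13, which serve the lower trunk, limbs and tail, were at or near 0. Of these 16 genes 14 had 0 counts in all 8 libraries, and the other 2, Hoxb13 and Hoxd13, had 1 count each. Hoxc8 had 0 counts in all 8 libraries too.

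Along the clusters, nearly all Hox counts of the code A libraries came from paralogs 2 to 8, with 0 and 1 counts from paralogs 9 to 13 in controls 1 and 2. For all 15 genes of paralogs 2 to 6, both code A libraries lay above the other 6. Summed over clusters, paralog 3 reached 29.0 and 18.6 CPM, and paralog 5 reached 35.4 and 14.6 CPM, in controls 1 and 2. The highest paralog with 5 counts or more in control 1 was 6 in Hoxa, 8 in Hoxb, 6 in Hoxc and 4 in Hoxd. In control 2 it was 5 in Hoxa, 6 in Hoxb, 5 in Hoxc and 4 in Hoxd. In the 2 ICSI-F2 libraries with the most Hox counts, a smaller share came from the higher paralogs than in code A. Paralogs 5 to 8 made up 5.0% (95% interval 1.04 to 13.9) of the 60 Hox counts of ICSI-F2 1 and 9.26% (3.08 to 20.3) of the 54 of ICSI-F2 3, against 48.7% (46.2 to 51.1) of those of control 1 and 35.2% (31.7 to 38.9) of those of control 2. ICSI-F2 2 had 0 of its 11 Hox counts there, and ICSI-F2 4 had both of its 2, from Hoxd8. These shares compare libraries, not groups, and the code D controls, with 2 and 15 Hox counts, are given no share.

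**Figure D2:**
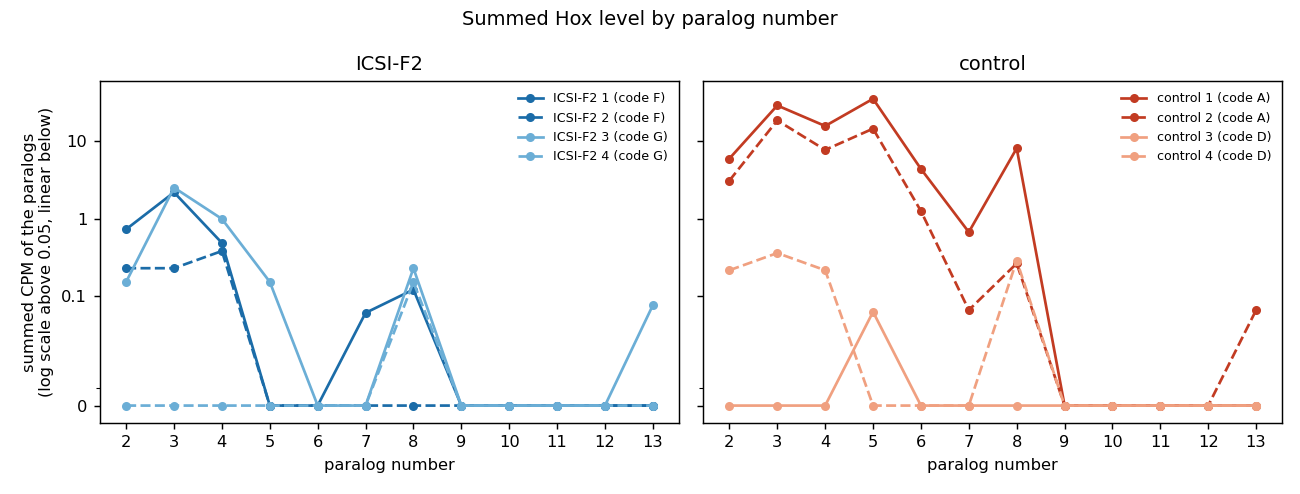
Summed CPM of the Hox paralogs (vertical axis, log scale above 0.05 and linear below) by paralog number (horizontal axis, from 2), for ICSI-F2 libraries on the left and controls on the right, 1 line per library. Controls 1 and 2 reach 35.4 and 14.6 CPM at paralog 5, where the ICSI-F2 libraries are at 0.153 CPM or at 0.

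Per length, the order of the genes in code A differed from the order in CPM. As mean CPM per kilobase of merged exons over controls 1 and 2, Hoxa5 was highest at 5.92, followed by Hoxb5 at 4.51, Hoxb3 at 2.64, Hoxa4 at 2.22, Hoxc4 at 1.81, Hoxd3 at 1.78, Hoxb8 at 1.59, Hoxa2 at 1.45 and Hoxb4 at 1.05. The place of Hoxb8 rests on control 1, with 3.08 CPM per kilobase there and 0.10 in control 2. All others were under 1, from 0.998 for Hoxb6 down. Some annotated exons of Hox genes are shared with a gene on the opposite strand, and the strand setting of the counting is not given. In Hoxb3, 52.9% of exon bases lie under Hoxb3os. Counted per kilobase of exon bases that no other gene overlaps, Hoxb3 came to 5.60. Hoxa3 came to 0.860 on merged exons and 2.0 on its longest transcript. Hoxd3 and Hoxd4 overlap on the same strand, over 9.26% and 13.2% of their exon bases. Reads inside the shared bases cannot be assigned to 1 gene, so their separate values are uncertain. The same holds for Hoxc5, which overlaps Hoxc10 over 5.37% of its exon bases.

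Within the controls, Hox genes were higher in code A than in code D, and the difference was carried by genes from all 4 clusters. Of the 39 genes, 13 passed the edgeR filter of the fit by code letter, and 11 were called higher in code A and 0 lower. Over all 16101 genes tested, 0.764% were called higher and 0.255% lower in code A. All of the 13 but Hoxb3 passed the filter only through their code A counts, so these had to differ. Hoxb3 also had counts in ICSI-F2 1 and 3. The number called is a description. Hoxd3 had the smallest adjusted p, 1.55e-09 by edgeR's quasi-likelihood test, on 235 counts in code A and 1 in code D. As a ratio of CPM over the pair of libraries of each letter this was 222-fold (counting interval 39.5 to 8816). Hoxa3 was 155-fold higher in code A (27.5 to 6164), with an adjusted p of 0.000167 by edgeR, and Hoxb5 380-fold higher (67.9 to 15055), with an adjusted p of 0.0309. Genes at 0 in code D allow only a lower bound, taken at 3 counts over the pair of code D libraries. By this bound Hoxc4 was at least 47.0-fold higher in code A (edgeR adjusted p 0.000129), Hoxb4 at least 27.1-fold (2.21e-05), Hoxb6 at least 19.9-fold (0.00245) and Hoxc5 at least 12.9-fold (0.00112). Hoxa2, Hoxa4, Hoxb2 and Hoxd4 were also called, at ratios of 38.8, 53.4, 59.6 and 25.5. Hoxd4 lost its call when any 1 of the 4 controls was left out and with DESeq2 (adjusted p of 0.0998 to 0.491 in these fits). Hoxb2 lost its call without control 1, without control 3 and with DESeq2 (0.0553 to 0.0585). Hoxb5 lost its call without control 3, without control 4 and with the control libraries alone (0.291 to 0.421). Hoxb6 and Hoxc5 lost theirs without control 3 (0.0675 and 0.0723), and Hoxa3, Hoxa4 and Hoxb6 with DESeq2.

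The abundant genes Hoxa5 and Hoxb3 were not called in that fit. Hoxa5 was at least 112-fold higher in code A than in code D, with an adjusted p of 0.240 by edgeR. Hoxb3 was 113-fold higher (38.2 to 548), with an adjusted p of 0.254 by edgeR. Hoxa5 was at 11.1 ± 7.28 CPM in code A (SD, n = 2), where Hoxb5, which was called, was at 12.6 ± 7.29. Hoxb3 was at 1.34 and 0 CPM in code F and 1.53 and 0 CPM in code G. Hoxb8 was not tested, because 1 library alone held nearly all its counts, and stood at least 43.2-fold higher in code A by its counts. Without control 3, a code D library, 6 of the 15 Hox genes then tested were called, which left the lone code D library assumed to vary like the other letters. In that fit 0.219% of all genes were called in either direction. DESeq2 called 7 of the 13 Hox genes, where it called 0.484% of all genes in either direction. All of the 13 but Hoxb3 passed the filter only through their code A counts, so calls that return under other settings are a description as well. Hoxa2, Hoxb4, Hoxc4 and Hoxd3 were called under all 10 alternatives run for them, while Hoxa5 was called under 5 of its 10, with adjusted p of 3.19e-20 to 0.606, and Hoxb3 under 2 of its 10, with 0.0121 to 0.836.

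The 2 code A libraries also differed from each other, and more so for paralogs 5 to 8 than for paralogs 1 to 4. Summed Hox CPM was 2.18 times as high in control 1 as in control 2 (counting interval 1.99 to 2.38). For paralogs 1 to 4 the ratio was 1.73 (1.54 to 1.94), and for paralogs 5 to 8 it was 3.01 (2.60 to 3.49), so these intervals did not overlap. By paralog the ratio was 1.92 for number 2, 1.56 for 3, 2.04 for 4, 2.43 for 5, 3.5 for 6, 10.2 for 7 (1.48 to 437) and 30.7 for 8. The value for paralog 8 is Hoxb8 alone, at 8.13 CPM in control 1 and 0.265 CPM in control 2 (ratio 30.7, interval 11.7 to 114). The clusters differed too, with 1.17 (0.911 to 1.51) for Hoxd, whose detected genes in these libraries end at paralog 4, and 2.61 (2.28 to 2.99) for Hoxb. The ratios compare 1 library with 1 other and have no replicate check.

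**Figure D3:**
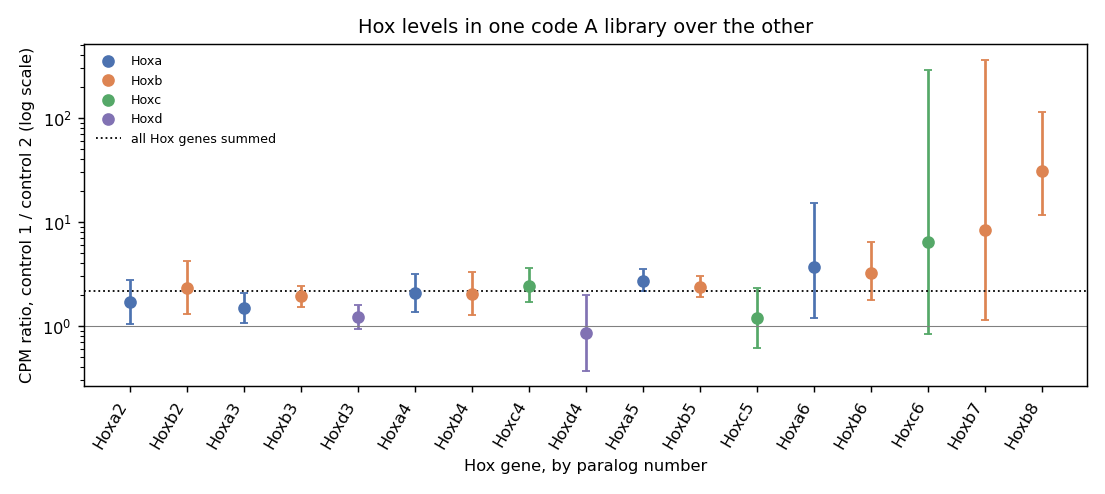
Ratio of CPM in control 1 to control 2, both code A (vertical axis, log scale), for 17 Hox genes with counts in both libraries, ordered by paralog number. Bars are exact 95% counting intervals, colours are clusters and the dotted line is the ratio of all Hox genes summed, 2.18. Hoxb8, at the right, stands at 30.7.

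Within ICSI-F2, no Hox gene passed the test between code G and code F. Summed Hox CPM was 4.13 and 0.152 in the code G libraries and 3.66 and 0.843 in the code F libraries, so 1 library of each letter was near 4 and the other under 1. Of the 13 genes tested 0 were called by edgeR, 1 (Hoxa2) had an unadjusted p under 0.05, its adjusted p was 0.680, and DESeq2 and limma-voom called 0. All of these 13 but Hoxb3 passed the filter only through their code A counts. Hoxb6 and Hoxc5 had 0 counts in all 4 ICSI-F2 libraries, and Hoxa5 and Hoxb5 had 1 count each there, so these genes held no counts on which a difference could be called. With the ICSI-F2 libraries alone, 1 Hox gene passed the filter and 0 were called. Over all 16101 genes tested, 0.273% were called higher and 0.0559% lower in code G. Hoxb3 led ICSI-F2 1 and ICSI-F2 3, with 22 and 20 counts of their 60 and 54 Hox counts.

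The RNAs transcribed between Hox genes were low and were found mostly in the code A libraries, and no protein-coding gene beside the clusters passed the test. Of 17 noncoding genes annotated inside the 4 clusters, 7 had 0 counts in all 8 libraries, and the other 10 summed to 72 counts in code A and 16 in the other 6 libraries. Hoxaas2, an antisense RNA at Hoxa3, had 1, 0, 1 and 1 counts in ICSI-F2 1 to 4, against 15, 10, 0 and 0 in controls 1 to 4. Hotairm1, a noncoding RNA of the Hoxa cluster, had 0, 1, 0 and 2 counts in ICSI-F2 and 12, 6, 2 and 1 in control. Hotair, in the Hoxc cluster, had 0 in all. The nearest protein-coding genes on either side of the clusters were Skap2, Evx1, Ttll6, Skap1, Calcoco1, Smug1, Evx2 and Mtx2. Of these 8 genes 0 were called between code A and code D, with adjusted p of 0.199 to 0.977 by edgeR, and 2 had an unadjusted p under 0.05. Evx2, next to Hoxd13, had a log2 fold change of 0.77 ± 0.31 (SE) and an adjusted p of 0.299, and Mtx2, beyond Hoxd1, had 0.11 ± 0.08.

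Of genes that work with or upstream of Hox proteins, 1 passed the test between code A and code D, out of 52 tested in 4 lists (1.92%), where 0.764% of all genes were called higher and 0.255% lower. The TALE homeodomain proteins Pbx, Meis and Pknox bind DNA together with Hox proteins, and 1 of 9 tested, Meis1, was called higher in code A. Meis1 had 47.4, 33.8, 37.1 and 31.6 CPM in ICSI-F2 1 to 4, against 59.7, 55.8, 30.6 and 31.6 CPM in controls 1 to 4. Its log2 fold change of code A over code D was 0.89 ± 0.13 (SE), with an adjusted p of 0.00301 by edgeR's quasi-likelihood test, and it was not called without control 1, without control 3 or without control 4, which left 0 of the list. In the retinoic acid pathway, which turns on anterior Hox genes in the embryo, 0 of 16 genes tested were called by edgeR, 2 had an unadjusted p under 0.05, DESeq2 called 0 and limma-voom 1, Cyp26b1. Cyp26b1, which degrades retinoic acid, had 59.8, 31.4, 38.3 and 30.6 CPM in ICSI-F2 and 64.7, 54.1, 31.7 and 34.4 CPM in control, with an adjusted p of 0.489 between code A and code D by edgeR. Of the embryonic regulators of Hox genes, such as Egr2 and Gdf11, 0 of 5 tested were called by edgeR, DESeq2 or limma-voom, and 0 had an unadjusted p under 0.05. Cdx2 had 0 counts throughout. Of the 22 Polycomb, Trithorax and related chromatin genes 0 were called by any of these tools, with 2 at an unadjusted p under 0.05. None of these 4 lists had a gene called by edgeR, DESeq2 or limma-voom between ICSI-F2 and control or between code G and code F, at 2, 2, 1 and 2 unadjusted p under 0.05 for the groups and 1, 1, 1 and 3 for code G against F.

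Genes of hindbrain and spinal cord neurons were also higher in the code A libraries. Of 18 genes tested from that list, 8 were called higher and 0 lower in code A than in code D by edgeR. Over all 16101 genes tested, 0.764% were called higher and 0.255% lower. The median log2 fold change of the list was 1.19, where the median of all 16101 genes was -0.00134. Both code A libraries lay above the other 6 for 12 of the 20 listed genes, and for 5.68% of all genes with at least 1 count. The summed level of the list was 113, 95.5, 96.9 and 87.7 CPM in ICSI-F2 1 to 4, against 163, 148, 74.7 and 94.8 CPM in controls 1 to 4. Lbx1, a factor of dorsal hindbrain and cord neurons, had 1.22, 0.307, 0.230 and 0.152 CPM in ICSI-F2 and 4.46, 2.25, 0.126 and 0.505 CPM in control. Its log2 fold change of code A over code D was 3.44 ± 0.55 (SE), with an adjusted p of 0.000567 by edgeR. Prrxl1, a factor of sensory neurons and the dorsal cord, was higher by 3.0 ± 0.50, and Glra1, a glycine receptor subunit, by 1.64 ± 0.30. Prrxl1 had 4.09 and 1.92 CPM in controls 1 and 2 and at most 0.577 CPM in the other 6 libraries. Lbx1 and Prrxl1 passed the filter through their code A counts, so their calls are a description. The fit by group tested 15 genes of the list, so the 8 calls and the median rest in part on such genes. Slc6a5, the glycine transporter of inhibitory hindbrain and cord neurons, had 6.28, 2.53, 3.14 and 0.683 CPM in ICSI-F2 and 26.1, 21.8, 1.07 and 1.80 CPM in control, and was not called (adjusted p 0.0997 by edgeR), though DESeq2 and limma-voom called it. Without control 1 the list had 2 genes called, and without control 3 it had 1.

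Among genes of other regions, 3 forebrain genes fell in code A and motor neuron genes changed in both directions. The shares of all 16101 genes called by edgeR were 0.764% higher and 0.255% lower in code A than in code D. Of 14 forebrain genes tested, 3 were called lower in code A than in code D by edgeR, among them Neurod6 and Tbr1 of cortical neurons, and 0 higher, and the median of the log2 fold changes was -0.24, with 0 of 14 above 0. Tbr1 had 142, 159, 152 and 155 CPM in ICSI-F2 and 139, 153, 174 and 172 CPM in control, with a log2 fold change of -0.25 ± 0.05 (SE) for code A over code D. Without control 1 or without control 3, 0 forebrain genes were called. Of 5 motor neuron genes tested, Prph and Slc5a7 were called higher and Isl1 lower in code A by edgeR, and 4 of the 5 log2 fold changes were above 0 (median 0.84). That count of 3 became 0 without control 1, 1 without control 3, 1 without control 4 and 0 with DESeq2. Of 8 cerebellar genes 0 were called by edgeR, with 2 at an unadjusted p under 0.05, and DESeq2 called 0 but limma-voom 3. The median log2 fold change of these 8 was 0.91, with 8 of 8 above 0, beside 1.19 and 16 of 18 for the hindbrain and spinal cord list. The fit by group tested 6 cerebellar genes, so these values rest in part on genes that only the filter by letter let in. The difference between the lists was not tested. Of 9 midbrain genes 0 were called by edgeR, DESeq2 or limma-voom, with 0 at an unadjusted p under 0.05. Of the remaining lists, Hox relatives, peripheral nerve, liver, muscle, cartilage and skin, and brain genes had 0 genes called between code A and code D by edgeR or DESeq2, with 1, 2, 0, 1, 0 and 3 at an unadjusted p under 0.05, and limma-voom called 1 brain gene, Slc1a3. Alb, the liver's serum albumin, was at 0.0609, 0.0766, 10.4 and 20.2 CPM in ICSI-F2 1 to 4 and at 0 in all 4 controls, so it was not found in the code A libraries. The hindbrain and spinal cord levels were higher in code A than in code D, as the Hox genes were, and the forebrain levels were lower. Their part in the Hox result was not tested.

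**Figure D4:**
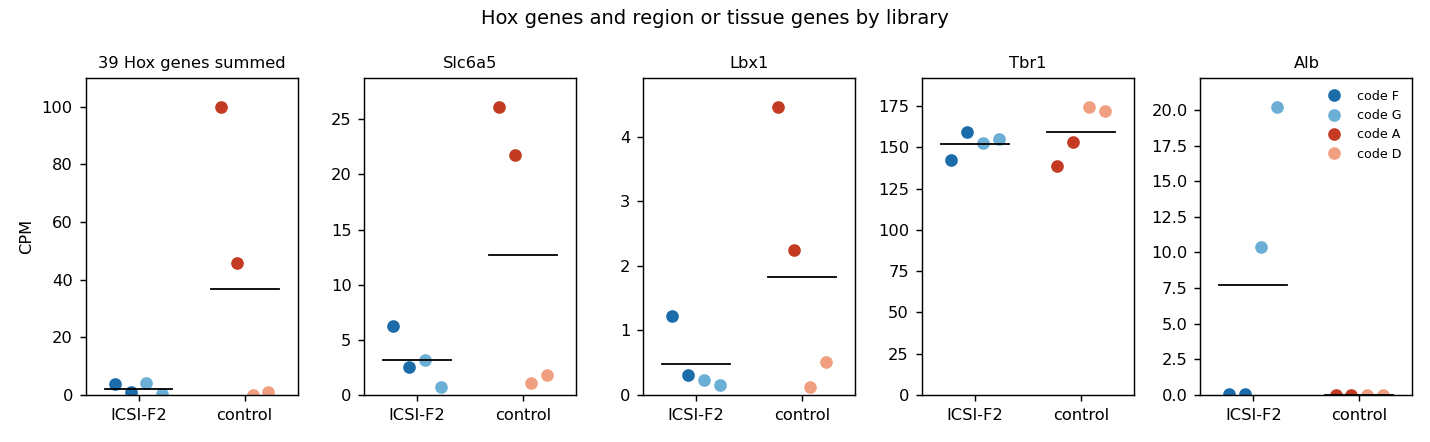
CPM (vertical axes, linear from 0, a scale per panel) of the 39 Hox genes summed and of Slc6a5, Lbx1, Tbr1 and Alb, 1 point per library, with ICSI-F2 left of control, colours for code letters and bars for group means. The 2 code A points lie on top for Hox, Slc6a5 and Lbx1, and the 2 code G points lie on top for Alb.

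Of 14865 genes with a mean of at least 1 CPM over the 8 libraries, 7 were Hox genes, which reached that mean only through their code A counts. A high ratio of code A to the other libraries was therefore fixed by the minimum for these 7, and their ratios are a description. The lower code A library over the highest of the other 6 was 96.9 for Hoxb5, 77.8 for Hoxa5, 22.1 for Hoxd3, 7.09 for Hoxc4, 6.05 for Hoxa3 and 5.02 for Hoxb3, while Hoxb8, at 0 in the other 6, gives no ratio, and its 0.265 CPM in control 2 is 4 counts. The 10 highest among genes that are not Hox genes were Slc6a5 at 3.47, Prrxl1 at 3.33, Lamp5 at 2.90, Pax8 at 2.59, Sncg at 2.54, Prph at 2.41, Syt2 at 1.95, Mab21l2 at 1.87, Nkx6-2 at 1.86 and Lbx1 at 1.85. These ratios rank genes by the same libraries and are given with no test. Several of the 10 are known from hindbrain and spinal cord neurons, among them Slc6a5, Prrxl1, Pax8 and Lbx1, which are also members of the list above. Prrxl1, Pax8, Nkx6-2 and Lbx1 averaged under 1 CPM in the other 6 libraries. They too reached the minimum only through code A, so their place among the 10 is a description.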

How the data were processed

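Total RNA of neonatal brain was sequenced as single reads of 76 bases from stranded mRNA libraries, per the labels' protocols, 1 library per sample. The authors deposited raw counts of reads for each gene, without normalization or pooling. The submitters' processing notes name HISAT2 2.2.1 and the build mm10, HTSeq 2.0.2, cutadapt 3.4 and bcl2fastq 2.20. Neither annotation release nor strand setting is given in the sources used here. Whether reads of genes that overlap on opposite strands were told apart is therefore not known. Positions came from GENCODE M21 on the same build, in which 32158 of 32285 identifiers were found.

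Groups, replicate numbers (in deposition order, so they pair nothing) and code letters came from the sample titles. The counts were tested with edgeR 4.0.16 (R 4.3.3) using the robust quasi-likelihood test with TMM, filterByExpr and Benjamini-Hochberg adjustment over all genes tested, at 0.05. ICSI-F2 was compared with control in a fit by group, and code A with D and G with F in a fit of all 8 libraries by letter, with 4 residual degrees of freedom. CPM used TMM-scaled library sizes, and levels between genes were divided by kilobases of merged exons. Totals were 12968175 to 16551511 counts. DESeq2 1.42.0, limma 3.58.1 (voom), other scalings, no filter and left-out libraries were alternatives. The fits were tested on simulated counts.

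Values are given for every Hox gene that passed a filter, for up to 4 genes of each list with the smallest p between A and D, for Slc6a5 and Alb, and for the 10 other genes most apart in code A, with the exception of a few items that are not reported here. Members, lists and tests were chosen with earlier results of these data known.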

Additional observations from a re-analysis of the deposited data

Results flagged for a closer look

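In groups of 4 libraries, a library was set apart when its gap to the nearest other was above Dixon's 95% critical share of the group's range. Of 26 groups examined 2 met this, where chance alone gives about 1 in 20 for continuous values. Beside 3 libraries at 0 any count meets the rule, so that rate does not hold for these 2 groups. Hoxa5 in ICSI-F2 3 was at 0.0765 CPM, with the other 3 ICSI-F2 libraries at 0. Hoxb5 in ICSI-F2 3 was also at 0.0765 CPM, with the other 3 at 0. Each value is 1 count, under the 3 counts that a library at 0 allows.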

How the results depend on the processing

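Of 13 Hox genes tested between code A and code D, edgeR called 11, DESeq2 7 and limma-voom 13. Over all genes, edgeR called 0.764% higher and 0.255% lower. DESeq2 called 0.484% and limma-voom 1.17% of all genes in either direction. With edgeR, fewer Hox genes were called without control 1, 3 or 4, fewest without control 3, and more without control 2. Hoxb3 between ICSI-F2 and control turned to a log2 fold change of 2.78 without the code A libraries. With no filter, 1 Hox gene was called lower in ICSI-F2. At 5 counts or more, detected Hox genes numbered 6, 0, 3 and 0 in ICSI-F2 1 to 4 and 0 and 0 in controls 3 and 4. With no filter the list counts between code A and D became 4 of 9 for cerebellum, 6 of 14 for forebrain and 2 of 8 for brain. In that fit 1.51% of all genes were called in either direction. Between code G and F the list counts became 1 of 20 for hindbrain and spinal cord and 2 of 9 for cerebellum, beside 0.402% of all genes. Between ICSI-F2 and control they became 1 of 20 for hindbrain and spinal cord and 1 of 7 for liver, beside 0.207% of all genes. The alternatives that follow were chosen after seeing the data. Leaving out each control in turn gave 0 to 1 called TALE genes, 1 to 8 hindbrain and spinal cord genes, 0 to 2 motor neuron genes and 0 to 4 forebrain genes between code A and D. Motor neuron calls were 0 with DESeq2, and cerebellar calls were 3 with limma-voom and 4 with the control libraries alone. Liver genes called higher in code G than in code F numbered 5 of 5 tested, against 2 with DESeq2. Fewer were called when any 1 ICSI-F2 library was left out. Over all genes, edgeR called 0.273% higher and 0.0559% lower in code G, and DESeq2 0.149% in either direction. The fit by group tested 0 liver genes. The 5 passed the filter through their code G counts, so their calls are a description. The cause was not tested. No paired analysis was possible because the replicate numbers follow deposition order and the title numbers are not shared by enough libraries of both groups.

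Depth limits low genes: a level under 0.183 to 0.230 CPM cannot be told from 0 in a single library. The code A against D fits rest on 2 libraries a letter, and a lone library left by leaving out its partner is assumed to vary like the others.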
